A study of Saccharomyces cerevisiae with 15 samples.

Results

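The genes described here are the 8 copper homeostasis genes of budding yeast that a list of identifiers named: the plasma membrane copper transporters CTR1 (YPR124W) and CTR3 (YLR411W), the metalloreductase FRE7 (YOL152W), the metallothioneins CUP1-1 (YHR053C), CUP1-2 (YHR055C) and CRS5 (YOR031W), and the transcription factors MAC1 (YMR021C) and CUP2 (YGL166W). They were found among the 6692 genes of the count tables, 7 of them by identifier. MAC1 was found by its symbol in the reference annotation, since the list gave it as YMR021W, an identifier with no entry in these tables. All 8 genes passed the filter on low counts and were among the 6588 genes tested.

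RNA was sequenced from 15 cultures of the yeast strain L40, a mating-type a strain with his{delta}200, trp1-901, leu2-3,112 and ade2 and with integrated lexAop reporters of HIS3 and lacZ. The study asked how interference with histone acetylation changes gene expression. In 3 cultures each, cells carrying the empty vector pL220 were grown with Curcumin (200 µM) or with CPTH2 (400 µM), both used as inhibitors of histone acetyltransferases. Cells carrying pL220 with scFv-58F, an intracellular antibody fragment (intrabody) against histone H3 acetylated at lysine 9, or with scFv-645, an unrelated intrabody against mouse neuroligin 2, made up 3 cultures each, and empty-vector cells in DMSO formed the control. All cultures contained 0.4% DMSO and were incubated for 1 h in SD-L, a synthetic medium without leucine. The methods name neither added copper nor a copper chelator, all groups share the strain L40 and the plasmid backbone, and how many transformants gave the cultures is not given in the sources used here. The doses of the drugs differ, so that a difference between CPTH2 and Curcumin is a difference at these doses.

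Yeast cells reduce copper at their surface with metalloreductases such as Fre1 and Fre7 and take it up through the transporters Ctr1 and Ctr3. When copper is scarce, the copper-sensing factor Mac1 activates genes of uptake, and when copper is plentiful, the factor Cup2 (also called Ace1) activates the metallothionein genes, whose small cysteine-rich products bind the metal. Inside the cell, chaperones pass copper on to enzymes such as superoxide dismutase, the multicopper oxidase Fet3 and cytochrome c oxidase.

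The promoters of CTR1, FRE7 and the CUP1 copies are shown because the genes of uptake and of storage described here are known targets of Mac1 and of Cup2. The 600 bases before each start codon were read from the RefSeq genome R64, the same build as sacCer3, and searched on both strands for the Mac1 element as TTTGCTCA or TTTGCGCA and for a form of the Cup2 element as TTTNNGCTG. Matches are in capitals, in either orientation, and each stretch runs 5′ to 3′ on the strand of its gene.
CTR1, chrXVI:785858-785918, plus strand: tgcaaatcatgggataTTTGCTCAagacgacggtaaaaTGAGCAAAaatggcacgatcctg
FRE7, chrXV:40398-40458, plus strand: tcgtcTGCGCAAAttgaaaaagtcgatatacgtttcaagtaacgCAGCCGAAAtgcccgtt
FRE7, chrXV:40558-40598, plus strand: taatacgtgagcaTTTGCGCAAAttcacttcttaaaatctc
FRE1, chrXII:568267-568317, plus strand: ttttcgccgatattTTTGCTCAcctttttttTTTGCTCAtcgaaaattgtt
CUP1-1, chrVIII:212885-213010, minus strand: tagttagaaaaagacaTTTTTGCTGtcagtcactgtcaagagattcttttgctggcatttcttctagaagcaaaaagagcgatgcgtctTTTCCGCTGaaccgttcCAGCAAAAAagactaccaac

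In CTR1, the letters TTTGCTCA stood at 334 to 327 bases before the start codon and again, on the other strand, at 312 to 305. In FRE7, TTTGCGCA was found at 345 to 338 on the other strand and as a palindrome-like pair at 177 to 170 and 175 to 168, whose matches overlap, and TTTNNGCTG at 306 to 298. FRE1, the main cell-surface reductase and no member of the list of 8, is shown for comparison with its pair of TTTGCTCA, which begin 286 and 269 bases before its start codon. Each CUP1 copy had TTTNNGCTG at 274 to 266, 201 to 193 and 184 to 176. Among the 6684 genes with a full window, TTTGCTCA occurred upstream of 2.81%, TTTGCGCA of 1.26%, either of them of 4.05%, and TTTNNGCTG of 10.7%. CTR3, CRS5, MAC1 and CUP2 held none of these letters in the window. The window of CTR3 is mostly transposon in the reference genome: a Ty2 element (chrXII:941192-947150) ends 102 bases before CTR3 and fills 498 of the 600 bases. Whether L40 carries this insertion is not given in the sources used here. A match of letters is a description and was not tested as a binding site.

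Reads counted on genes ranged between 9062694 and 18878167 per sample. Levels are given as CPM, the counts of a gene per 1000000 reads of a library whose size was normalized by TMM over all 15 samples. Before that normalization, 3 counts correspond to 0.159 to 0.331 per 1000000 reads counted on genes. A change is called where the fold change was 1.5 or more and the p-value of edgeR's quasi-likelihood test, fitted across all genes for each pair of groups and adjusted by Benjamini-Hochberg, lay under 0.05. Curcumin replicates were less alike than those of the other groups, with mean distances to each other of 51.8 to 74.7 on log2 CPM over all genes, against 15.5 to 26.4 in the other groups. Curcumin replicate 3 was farthest from DMSO, with a mean distance of 129.1, against 84.7 and 110 for the others. The 4 marker genes of mating type a that were checked (STE2, MFA1, MFA2 and BAR1) were at 14.9 CPM or more in every sample. They were not steady, however. Against DMSO, MFA1 was called higher in Curcumin (log2 fold change 2.67), and MFA2 (-2.20) and STE2 (-0.70) lower. In CPTH2, MFA1 was called higher (0.67), and MFA2 (-1.05) and BAR1 (-0.955) lower. The alpha-factor genes MFALPHA1 and MFALPHA2, markers of the other mating type, were at 3.98 to 23.7 and 6.03 to 8.46 CPM in Curcumin and at no more than 1.30 and 2.35 CPM in the other groups. STE3, a further marker of that type, was at 8.06 CPM or more in every sample and overlaps YKL177W on the opposite strand. The part of these differences in the copper genes was not tested. The same DMSO samples stand in all 4 comparisons with DMSO, and in bulk cultures fewer cells that express a gene and less RNA per cell cannot be told apart.

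In the DMSO control, the copper genes lay far apart in level. Scaled per kilobase of gene length, CUP1-1 ranked 14 among the 6588 genes, with a mean level of 11980 CPM per kb, against a median of 38.6 CPM per kb over all genes. CUP2 ranked 1005 and CRS5 1072, with 181 and 167 CPM per kb. MAC1, CTR3 and CTR1 lay below the median, at 29.8, 25.2 and 23.9 CPM per kb. FRE7 ranked 6436, with 2.65 CPM per kb.

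**Figure D1:**
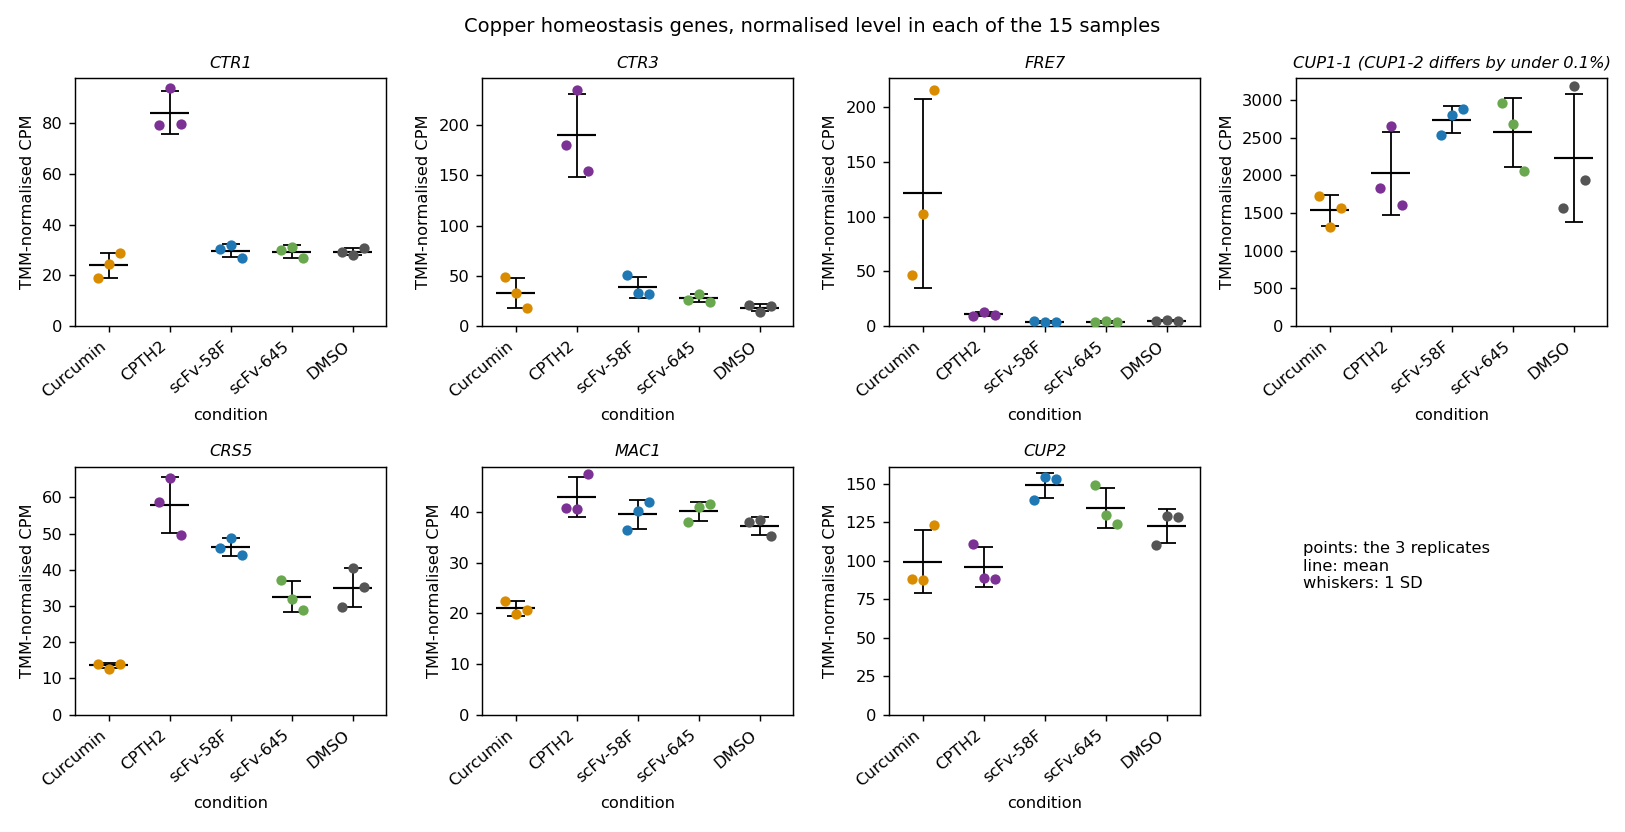
Levels of 7 copper homeostasis genes (CPM, vertical axis from 0) in the 5 groups, where each point is 1 of the 3 replicates, the line is the mean and the whiskers are 1 SD. CUP1-2 is left out because its counts were within 0.0453% of those of CUP1-1. CTR1 and CTR3 stand highest in CPTH2, FRE7 in Curcumin, and every other group overlaps DMSO for CUP1-1.

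CTR1 encodes the main high-affinity copper transporter of the plasma membrane (chrXVI:786208-787428, plus strand). It was at 79.1, 93.9 and 79.6 CPM in CPTH2, against 29.0, 27.9 and 30.7 CPM in DMSO. The samples of the drug lay well above all controls, and the level rose 2.89-fold (log2 fold change 1.53 ± 0.09 SE, edgeR adjusted p = 7.4e-06, by Benjamini-Hochberg). Curcumin samples had 18.9, 24.3 and 28.7 CPM and overlapped the DMSO range (log2 fold change -0.30 ± 0.19, edgeR adjusted p = 0.22). With scFv-58F, CTR1 was at 30.3, 31.9 and 26.9 CPM, and with scFv-645 at 30.1, 31.3 and 26.6 CPM. Both sets of intrabody samples lay around the DMSO values, with log2 fold changes of 0.03 ± 0.08 for scFv-58F and 0.00 ± 0.09 for scFv-645. By mean level the order was CPTH2, scFv-58F, scFv-645, DMSO and Curcumin, of which the last 4 overlapped with at least 1 neighbour. Over 368 bases CTR1 overlaps YPR123C, which lies on the opposite strand, and the counting ignored strand, so that reads in the overlap cannot be assigned to either. YPR123C had 28.0 ± 4.28 CPM in CPTH2 and 5.01 ± 0.682 CPM in DMSO (SD, n = 3 each).

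CTR3 encodes the other high-affinity transporter (chrXII:947253-947978, plus strand), and no other annotated gene overlaps it. It was called in 3 of the 4 comparisons with DMSO, more than any other of the 8 genes. CPTH2 samples had 180.0, 235 and 154 CPM, against 20.6, 14 and 20.2 CPM in DMSO. This was the largest change of the 8 genes in CPTH2, a 10.5-fold increase (log2 fold change 3.40 ± 0.19, adjusted p = 7.35e-06, edgeR with Benjamini-Hochberg adjustment). In scFv-58F, CTR3 was at 50.4, 33.2 and 31.8 CPM, all above the 3 controls, and rose 2.15-fold (log2 fold change 1.10 ± 0.19, edgeR adjusted p = 0.00061). This call was lost where all 5 groups shared 1 model (edgeR adjusted p = 0.058) and in a test against the fold cutoff itself (edgeR adjusted p = 0.11). In scFv-645, it was at 26.2, 32.2 and 24.3 CPM and again above every control, a 1.53-fold rise (log2 fold change 0.61 ± 0.15, edgeR adjusted p = 0.014). That rise stood just past the fold cutoff and was no longer called without DMSO replicate 2 (log2 fold change 0.42) or without scFv-645 replicate 2 (0.49), nor in the model of all 5 groups (edgeR adjusted p = 0.45). Between the intrabodies the ranges overlapped, and scFv-58F over scFv-645 gave a log2 fold change of 0.48 ± 0.17 (edgeR adjusted p = 0.070), which was called without scFv-58F replicate 3 (0.61, edgeR adjusted p = 0.043).

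Curcumin samples had 48.5, 32.6 and 18.2 CPM of CTR3, so that replicate 3 fell within the DMSO range and the others above it. The log2 fold change over DMSO was 0.85 ± 0.36 (edgeR adjusted p = 0.081), and 1.16 without replicate 3 (edgeR adjusted p = 0.0037), where it was called. Scaling by library size alone (1.19, edgeR adjusted p = 0.026) and the model of all 5 groups (0.87, edgeR adjusted p = 0.020) also called it.

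FRE7 encodes a metalloreductase that Mac1 induces in copper-poor cells (chrXV:40748-42610, plus strand), and no annotated gene overlaps it. It had the largest change of the 8 genes, in Curcumin, with 46.4, 102 and 216 CPM against 4.65, 5.11 and 5.03 CPM in DMSO. Every Curcumin sample was far above the controls, but they also differed several-fold among themselves. The increase was 24.4-fold (log2 fold change 4.61 ± 0.59, adjusted p = 0.0015, edgeR with Benjamini-Hochberg adjustment), and the log2 fold change was 3.90 without Curcumin replicate 3. CPTH2 samples had 9.43, 12.8 and 9.78 CPM, again above every control, and rose 2.15-fold (log2 fold change 1.10 ± 0.15, edgeR adjusted p = 0.00027, and 0.054 in the model of all 5 groups). In scFv-58F it was at 4.73, 3.64 and 3.35 CPM and in scFv-645 at 3.23, 4.77 and 3.86 CPM. Both overlapped DMSO, with the same log2 fold change of -0.35 and standard errors of 0.16 and 0.17.

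Among the metallothioneins, CUP1-1 and CUP1-2 are copies of 1 gene (chrVIII:212535-212720 and chrVIII:214533-214718, minus strand), and their values are 1 measurement printed for both. All 186 bases of the genes and the 400 bases before them are identical in the reference, within an identical run of 1988 bases, so that the reads were shared between them. Their counts differed by 1 to 19 in a sample that held at least 15340 of either. The reference holds 2 copies, and the number in L40 is not given in the sources used here.

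CUP1-1 was at 1727, 1310.3 and 1565 CPM in Curcumin, against 1561, 3191 and 1935 CPM in DMSO. In CPTH2 it was at 1835, 2650.0 and 1602 CPM. In scFv-58F the values were 2539, 2799 and 2876 CPM and in scFv-645 they were 2963, 2685 and 2062 CPM. All 4 conditions overlapped DMSO, in which replicate 2, the most deeply sequenced sample of the series, stood far above the others. No change was called: the log2 fold changes were -0.56 ± 0.34 in Curcumin, -0.14 ± 0.27 in CPTH2, 0.29 ± 0.20 in scFv-58F and 0.20 ± 0.23 in scFv-645. Without DMSO replicate 2, the change in scFv-58F became 0.64 and was called (edgeR adjusted p = 0.00072, Benjamini-Hochberg adjustment), and that in CPTH2 changed sign to 0.22 and was not called. Each copy overlaps a gene on the opposite strand by 170 bases, YHR052W-A or YHR054W-A, whose reads cannot be told apart from those of CUP1.

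CRS5 encodes the minor metallothionein (chrXV:389213-389422, plus strand). It had 14.1, 12.7 and 14.02 CPM in Curcumin, against 29.7, 40.4 and 35.2 CPM in DMSO. The ranges did not overlap and the level fell to 0.384 of that in DMSO (log2 fold change -1.38 ± 0.17, edgeR adjusted p = 0.0014). In CPTH2 it was higher instead, at 58.6, 65.3 and 49.7 CPM, also outside the DMSO range (1.64-fold, log2 fold change 0.71 ± 0.13, edgeR adjusted p = 0.0013). The rise in CPTH2 did not pass the test against the fold cutoff itself (edgeR adjusted p = 0.27). In scFv-58F, CRS5 was at 46.0, 48.9 and 44.2 CPM, above every DMSO sample and above the 37.2, 31.9 and 28.8 CPM of scFv-645. The differences were smaller than the fold cutoff, with log2 fold changes of 0.38 ± 0.10 over DMSO (edgeR adjusted p = 0.0070) and 0.50 ± 0.10 over scFv-645 (edgeR adjusted p = 0.0056). Without scFv-645 replicate 1, the difference from scFv-645 was 0.62 and was called. In scFv-645 against DMSO, the log2 fold change was -0.12 ± 0.12.

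MAC1, the activator of the uptake genes (chrXIII:317165-318418, minus strand), was called in Curcumin alone among the comparisons with DMSO. It was at 22.6, 19.8 and 20.6 CPM in Curcumin, against 38.1, 38.6 and 35.3 CPM in DMSO. The groups did not overlap, and MAC1 fell to 0.557 of the DMSO level in Curcumin (log2 fold change -0.84 ± 0.13, edgeR adjusted p = 0.0028). With scaling by library size alone, which moved the median of all genes in this comparison to 0.38 on the log2 scale, MAC1 was at -0.49 and no longer past the fold cutoff. CPTH2 samples had 40.8, 40.7 and 47.5 CPM, above each control but by little (log2 fold change 0.20 ± 0.09, edgeR adjusted p = 0.076). With the intrabodies it overlapped DMSO, at 36.5, 40.2 and 42.0 CPM in scFv-58F and 38.1, 40.9 and 41.6 CPM in scFv-645. The transcript of MAC1 was lower in Curcumin, where FRE7 was higher, and was not called in CPTH2, where CTR1, CTR3 and FRE7 were all higher. Whether the level of MAC1 RNA bears on these uptake genes was not tested.

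CUP2, the activator of the metallothionein genes (chrVII:191129-191806, plus strand), was not called in any comparison. It had 88.3, 87.2 and 123 CPM in Curcumin and 111, 88.8 and 88.4 CPM in CPTH2, against 110, 129 and 128 CPM in DMSO. Both drug groups overlapped the controls, with log2 fold changes of -0.32 ± 0.20 in Curcumin (edgeR adjusted p = 0.21) and -0.35 ± 0.11 in CPTH2 (edgeR adjusted p = 0.018, below the fold cutoff). In scFv-58F it was at 140, 154 and 153 CPM, above the 3 controls, with a log2 fold change of 0.28 ± 0.07 (edgeR adjusted p = 0.0073, below the fold cutoff). The scFv-645 samples, at 149, 130 and 124 CPM, overlapped both. CUP2 shares 409 bases with YGL165C on the opposite strand, and reads in the overlap cannot be assigned to either. YGL165C had 128.5 ± 5.73 CPM in scFv-58F and 107.5 ± 10.1 CPM in DMSO (SD, n = 3 each).

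**Figure D2:**
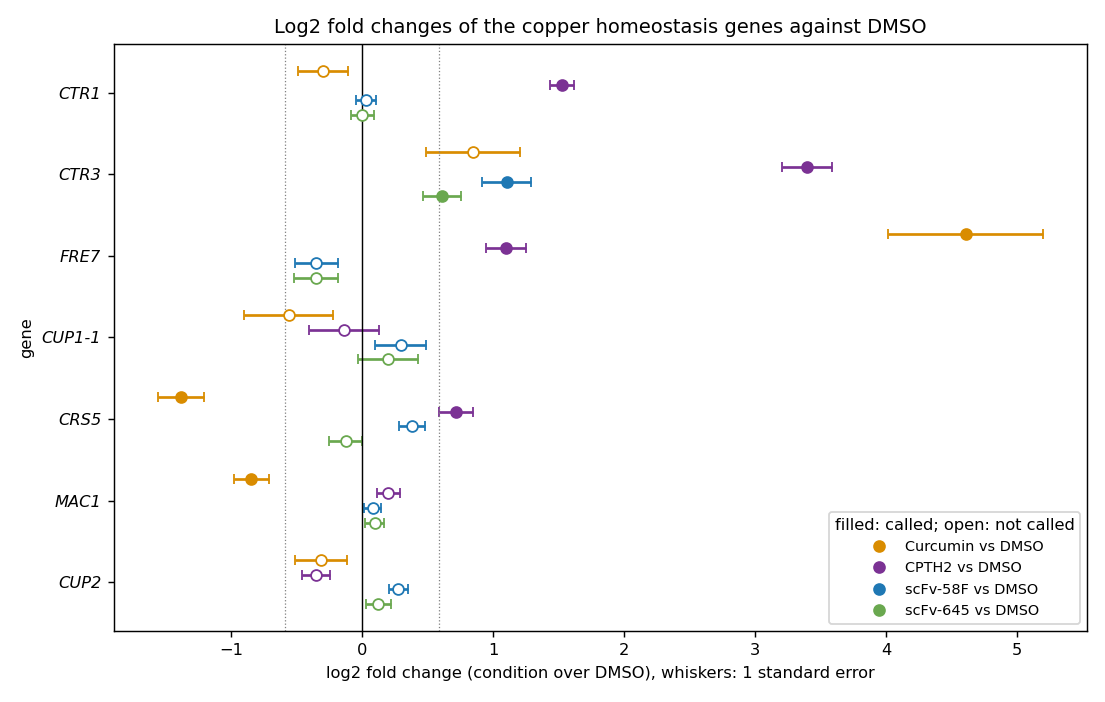
Log2 fold changes of 7 copper homeostasis genes over DMSO in the 4 other conditions, with whiskers of 1 standard error and dotted lines at the 1.5-fold cutoff. Filled points are called: CTR1, CTR3, FRE7 and CRS5 in CPTH2, FRE7, CRS5 and MAC1 in Curcumin, and CTR3 alone in each intrabody.

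By comparison, 3 of the 8 genes were called in Curcumin against DMSO, FRE7 higher and CRS5 and MAC1 lower, where 52.6% of all tested genes were called, 27.9% higher and 24.7% lower. In CPTH2 against DMSO, 4 of 8 were called, all higher (CTR1, CTR3, FRE7 and CRS5), where 31.0% of all genes were called, 14.1% higher and 16.9% lower. In scFv-58F against DMSO, 1 of 8 was called (CTR3, higher), with 7.41% of all genes called, 1.97% higher and 5.43% lower. In scFv-645 against DMSO it was again 1 of 8 (CTR3, higher), with 4.02% of all genes called, 1.32% higher and 2.70% lower. The median log2 fold change of the 8 genes was -0.44 in Curcumin, 0.46 in CPTH2, 0.28 in scFv-58F and 0.11 in scFv-645, while that of all genes lay between -0.03 and 0.03. CUP1-1 and CUP1-2 count as separate genes in these numbers although they share reads.

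The drugs and the intrabodies were also compared with each other. In CPTH2 against Curcumin 5 of the 8 genes were called, with 50.3% of all tested genes called, 23.6% higher and 26.7% lower. CTR1 (log2 fold change 1.81 ± 0.22), CTR3 (2.52 ± 0.37), CRS5 (2.08 ± 0.19) and MAC1 (1.03 ± 0.17) were higher in CPTH2, and FRE7 (-3.52 ± 0.55) was lower. The largest edgeR adjusted p-value of these 5 genes was 0.0028. None of them overlapped between the drugs, which adds little, since the call rests on the same samples. The share of all genes without overlap was not counted. For FRE7, the difference was -2.81 without Curcumin replicate 3. CUP1-1 and CUP1-2 (both 0.40 ± 0.32, edgeR adjusted p = 0.32) and CUP2 (-0.06 ± 0.21, edgeR adjusted p = 0.83) overlapped between the drugs and were not called. In scFv-58F against scFv-645, none of the 8 was called by edgeR, where 2.79% of all genes were called, 0.668% higher and 2.13% lower. At an unadjusted p below 0.05 there were 2, CRS5 and CTR3, and the DESeq2 Wald test called 0 as well. CTR3 overlapped between the intrabodies, and so did the other 6 genes. The log2 fold changes of these 6 were 0.02 ± 0.09 for CTR1, -0.01 ± 0.20 for FRE7, 0.09 ± 0.14 for both CUP1 copies, -0.03 ± 0.08 for MAC1 and 0.14 ± 0.09 for CUP2.

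The wider pathway was described with a list of 25 other copper genes. In Curcumin, 17 of them (68.0%) were called, 11 higher and 6 lower, where 52.6% of all tested genes were called, 27.9% higher and 24.7% lower. In CPTH2, 9 (36.0%) were called, all higher, close to the 31.0% of all genes called, of which 14.1% were higher and 16.9% lower. In CPTH2 against Curcumin, 15 (60.0%) were called, 7 higher and 8 lower, where 50.3% of all genes were called. The median log2 fold change of the 25 was 0.24 in Curcumin and 0.39 in CPTH2, beside 0.03 and -0.03 over all genes. In 2 of the 25, reads on the opposite strand cannot be told apart: CCC2 overlaps YDR269C and YDR271C, and IRC7 overlaps YFR056C by 122 bases. Among the 4 genes linked to Mac1 or to reduction, FRE1 rose in both drugs. It was at 53.4, 68.2 and 157 CPM in Curcumin and at 29.2, 36.8 and 31.9 CPM in CPTH2, against 15.5, 16.6 and 15.3 CPM in DMSO. Like FRE7, it was highest in Curcumin replicate 3, without which its log2 fold change of 2.54 ± 0.42 became 1.94, and in CPTH2 it was 1.04 ± 0.11. FRE2, another surface reductase, rose in Curcumin (8.65 ± 3.48 CPM, against 3.57 ± 1.04 CPM in DMSO, SD, n = 3 each, log2 fold change 1.25 ± 0.37), and this call was lost without any 1 of the 3 DMSO samples. REE1, a gene reported among the Mac1-linked genes, fell by 1.01 on the log2 scale in Curcumin and rose by 0.73 in CPTH2. The CPTH2 call of REE1 was lost in a test against the fold cutoff itself (edgeR adjusted p = 0.14). IRC7, a beta-lyase gene of the same group, was at 0.77 ± 0.22 in Curcumin, a call lost without any 1 DMSO sample or without Curcumin replicate 3.

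Of the 7 transporters in the list, 4 were called in Curcumin (57.1%, near the 52.6% of all genes) and 1 in CPTH2 (14.3%, against 31.0% of all genes). CTR2, which releases copper from the vacuole, had 357, 384 and 133 CPM in Curcumin, against 26.2, 24.1 and 27.9 CPM in DMSO. This 11.1-fold rise (log2 fold change 3.47 ± 0.43, edgeR adjusted p = 0.0013) stood beside a CTR1 level that was not called in Curcumin. In CPTH2, CTR2 was at 27.6, 23.3 and 22.6 CPM, and CPTH2 over Curcumin gave a log2 fold change of -3.58 ± 0.42 (edgeR adjusted p = 0.0011). PCA1, a P-type metal ATPase (1.58 ± 0.35), and MRS3, a mitochondrial metal carrier (0.96 ± 0.16), were also higher in Curcumin, and BSD2, which directs metal transporters to degradation, was lower (-0.73 ± 0.16, not called with scaling by library size alone). PIC2, the mitochondrial copper and phosphate carrier, was the only one of these 7 transporters called in CPTH2, at 383, 485 and 337 CPM against 216, 198 and 227 CPM in DMSO (log2 fold change 0.91 ± 0.14). FET4 and GEF1 were not called in any comparison with DMSO.

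Of the 11 genes that distribute copper inside the cell, 7 were called in Curcumin, 3 higher and 4 lower, where 27.9% of all genes were called higher and 24.7% lower. CCC2, the ATPase that pumps copper into the Golgi, rose 6.26-fold (log2 fold change 2.64 ± 0.25), SLF1, an RNA-binding protein gene linked to copper tolerance, 16.6-fold (4.05 ± 0.31), and COX23, of cytochrome c oxidase assembly, 2.75-fold (1.46 ± 0.17). In the same samples ATX1, the chaperone that hands copper to Ccc2, fell by 1.60 on the log2 scale, as did CMC1 by 1.60, COX19 by 1.17 and SCO2 by 2.34, all of them copper proteins or assembly factors of the mitochondrion except ATX1. The COX19 call was lost without DMSO replicate 1 or Curcumin replicate 2. In CPTH2, 4 of the 11 were called (36.4%), all higher, near the 31.0% of all genes called, of which 14.1% were higher. They were COX17 (0.91 ± 0.10), SCO1 (0.68 ± 0.11), SCO2 (0.72 ± 0.08) and CCC2 (0.65 ± 0.13), with the call of CCC2 lost without CPTH2 replicate 2. SCO2 was called in opposite directions in the drugs, at 54.6 ± 2.20 CPM in CPTH2 and 6.58 ± 2.99 CPM in Curcumin, against 33.0 ± 1.14 CPM in DMSO (SD, n = 3 each). In a test against the fold cutoff itself, the CPTH2 calls of SCO2 (edgeR adjusted p = 0.077), SCO1 (edgeR adjusted p = 0.29) and CCC2 (edgeR adjusted p = 0.47) were lost.

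The copper enzymes FET3, the plasma membrane multicopper ferroxidase, and its vacuolar relative FET5 were higher in both drugs. FET3 was at 188, 167 and 119 CPM in Curcumin and at 188, 285 and 242 CPM in CPTH2, against 70.4, 76.9 and 71.0 CPM in DMSO. The log2 fold changes were 1.11 ± 0.21 and 1.71 ± 0.14. With the intrabodies FET3 moved the other way, to 53.4, 43.8 and 41.0 CPM in scFv-58F and 45.6, 45.0 and 46.4 CPM in scFv-645. It was lower than DMSO by nearly the same amount in both, with log2 fold changes of -0.67 ± 0.09 and -0.68 ± 0.07, and neither passed a test against the fold cutoff itself. SOD1, the copper-zinc superoxide dismutase, was not called in either drug (log2 fold change -1.26 ± 0.50 in Curcumin, edgeR adjusted p = 0.069).

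In scFv-58F, FET3 was the only one of the 25 pathway genes called, where 7.41% of all genes were called, and in scFv-645 the called genes were FET3 and PIC2, where 4.02% were called. PIC2 was at 108, 132 and 108 CPM in scFv-645, below every DMSO sample (log2 fold change -0.89 ± 0.09), and at 227, 159 and 170 CPM in scFv-58F. It was the only pathway gene called between the intrabodies (scFv-58F over scFv-645, 0.68 ± 0.13, edgeR adjusted p = 0.0052), a call lost without scFv-58F replicate 1 and in the model of all 5 groups.

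**Figure D3:**
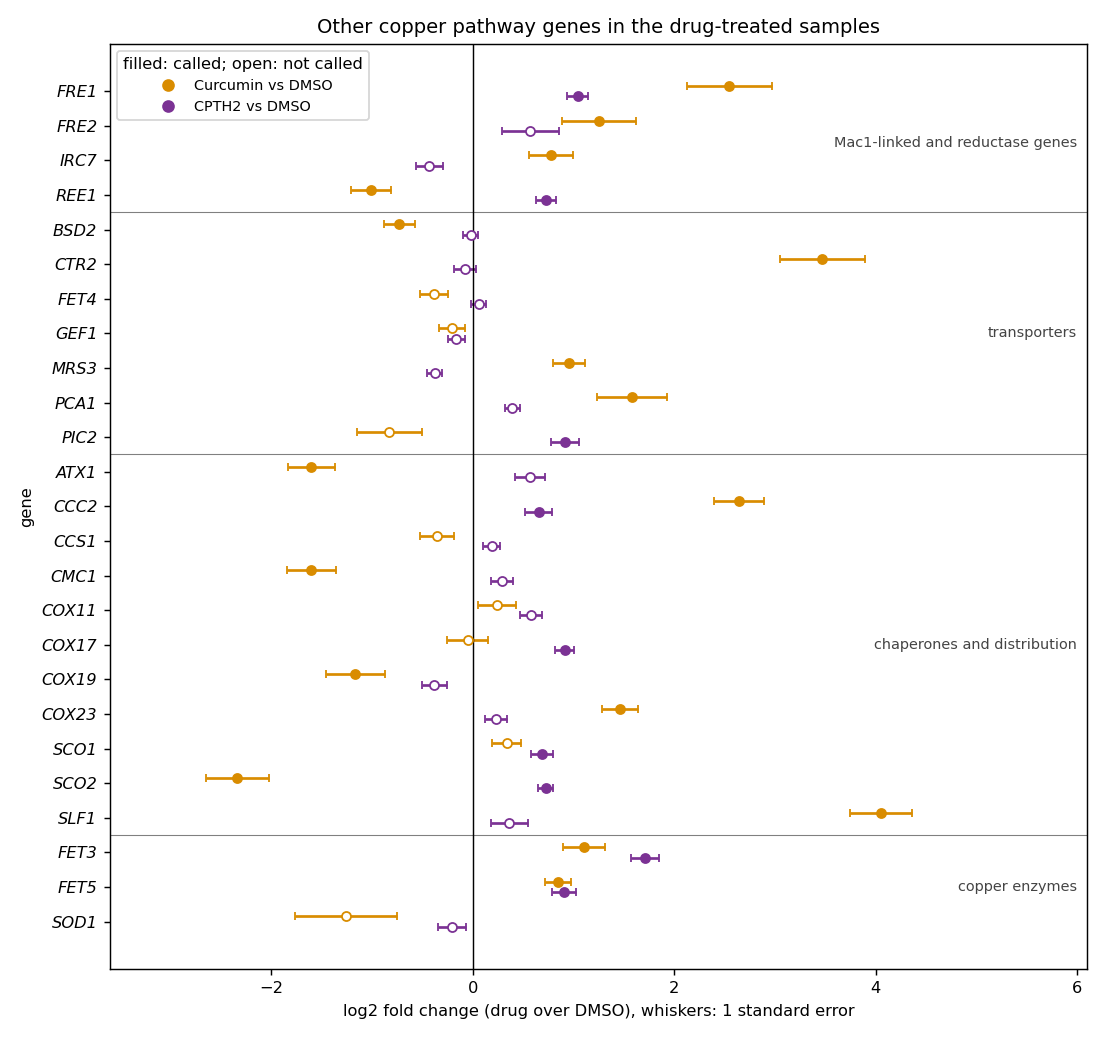
Log2 fold changes over DMSO of 25 other copper pathway genes in Curcumin and in CPTH2, with whiskers of 1 standard error, grouped by role. Filled points are called, 17 of 25 in Curcumin in both directions (52.6% of all genes) and 9 of 25 in CPTH2 (31.0% of all genes), all of which lie to the right of 0.

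Set beside their promoters, the genes with Mac1 letters were not all called in Curcumin. FRE7 and FRE1 were called higher there and CTR1 was not, and these 3 genes were called higher in CPTH2, as was CTR3, in whose window no such letters were found. The CUP1 copies, with the Cup2 letters, were not called in either drug, and FRE7, which also holds them, was called in both. Elsewhere in the pathway, IRC7, CCC2 and CCS1, the chaperone of superoxide dismutase, also had a Mac1 match within 600 bases. Of these, CCC2 was called higher in both drugs and CCS1 in neither. IRC7 was called higher in Curcumin and was not called in CPTH2, where it was at 23.7 ± 4.16 CPM against 32.2 ± 2.63 CPM in DMSO (SD, n = 3 each), with all CPTH2 samples below DMSO (log2 fold change -0.43 ± 0.13, edgeR adjusted p = 0.017). The Cup2 letters were found upstream of these 3 pathway genes too, and of REE1, FET4, COX11, COX19 and SOD1. REE1 was called lower in Curcumin and higher in CPTH2, and COX19 was called lower in Curcumin alone. FET4, COX11 and SOD1 were called in neither drug.

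The CUP1 copies lie 1998 bases apart in a tandem repeat that also contains YHR054C, a partial copy of RSC30, and the genes on either side are CIC1 and RSC30. These neighbours were called higher in Curcumin, where CUP1 was not called. YHR054C was at 1448, 2434 and 2077 CPM in Curcumin, against 63.6, 61.7 and 63.1 CPM in DMSO, a 31.4-fold difference (log2 fold change 4.97 ± 0.31, edgeR adjusted p = 0.00061). RSC30, which encodes a subunit of the RSC chromatin remodelling complex, was at 1332, 2219 and 2004 CPM in Curcumin, against 103, 99.6 and 103 CPM in DMSO (log2 fold change 4.17 ± 0.30, edgeR adjusted p = 0.00061). All 1065 bases of YHR054C are identical to the end of RSC30, so that their reads were shared, and the other 1587 bases of RSC30 are its own.

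The raw counts of the pair give their ratio. YHR054C had 1.09, 1.10 and 1.04 times the counts of RSC30 in Curcumin, against 0.62, 0.62 and 0.61 times in DMSO. RSC30, which contains all of YHR054C's sequence, received fewer reads than YHR054C in each Curcumin sample and more in each DMSO sample, and in the other groups the ratio was between 0.50 and 0.58. YHR056W-A, a gene on the opposite strand that overlaps the unshared part of RSC30 by 429 bases and was chosen after its values were seen, was at 11.4, 17.6 and 24.0 CPM in Curcumin, against 8.59, 8.39 and 8.89 CPM in DMSO. The counts of RSC30 less those of YHR054C were -1688, -2510 and -1018 in Curcumin, against 393, 681 and 471 in DMSO. The level and fold change of RSC30 thus include reads shared with YHR054C. How far the unshared part of RSC30 was transcribed was not tested. CIC1, a ribosome biogenesis gene on the other side of CUP1-1, was at 198, 161 and 164 CPM in Curcumin, against 103, 103 and 88.1 CPM in DMSO (log2 fold change 0.82 ± 0.17). It fell to 41.3, 42.0 and 54.0 CPM in CPTH2 (-1.10 ± 0.12). In scFv-58F it fell to 60.0, 55.9 and 59.9 CPM (-0.74 ± 0.07). All scFv-645 samples also lay below DMSO, without a call (-0.407 ± 0.094, edgeR adjusted p = 0.010). CIC1 was not called between the intrabodies (scFv-58F over scFv-645, -0.345 ± 0.086, edgeR adjusted p = 0.017). A test against the fold cutoff lost the calls in Curcumin (edgeR adjusted p = 0.085) and scFv-58F (edgeR adjusted p = 0.19).

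**Figure D4:**
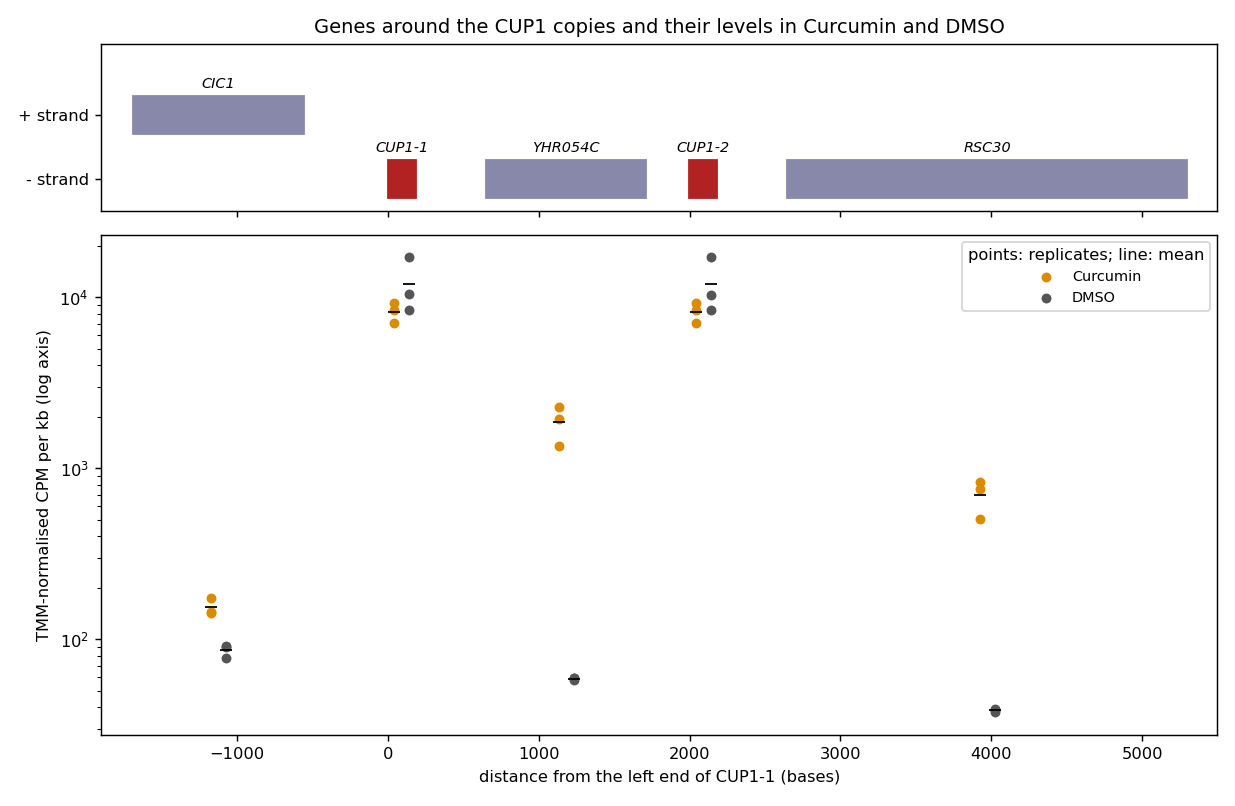
The CUP1 locus on chromosome VIII, drawn to scale as distance from the left end of CUP1-1, with each gene as a box on its strand, and below it the level of each gene (CPM per kb, log axis) in Curcumin and in DMSO, with replicates as points and means as lines. YHR054C and RSC30 lie more than 10-fold higher in Curcumin, while Curcumin and DMSO overlap at both CUP1 copies. Reads were shared between YHR054C and RSC30, so that the level of RSC30 is not that of its unshared part alone.

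The genes whose levels were most like those of the uptake genes over the 15 samples were found by Pearson's r of log2 CPM, given as a description, since the samples fall into 5 groups and share the DMSO controls. For CTR1 these were YPR015C (r = 0.953), FRT2 (0.952) and YPR123C (0.943), all with their highest mean in CPTH2. YPR123C overlaps CTR1, and their reads are the same in part. CTR3 was followed most closely by NQM1 (0.969), FMP45 (0.965) and MSC1 (0.953), also highest in CPTH2, where NQM1, a transaldolase gene, was at 233 CPM against 57.4 CPM in DMSO. For FRE7 they were FIG2 (0.995), ATG1 (0.994) and RNR3 (0.992), all highest in Curcumin. For CUP1-1 the closest were the overlapping genes YHR054W-A and YHR052W-A (both 0.999), whose reads are the same in part, and then ADI1 (0.853).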

How the data were processed

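RNA from 15 yeast cultures, 3 in each of 5 conditions, was analysed, with conditions and replicate numbers taken from the sample labels and doses from the labels and methods. The authors prepared the libraries with a stranded mRNA kit, sequenced them in 1 lane, trimmed the reads with cutadapt and mapped them with segemehl to the sacCer3 genome. The authors deposited a count of reads for each of 6692 genes, made with NGSutils 0.5.9, which ignored the strand and divided a read that mapped to several positions. Per the file headers, the authors' CPM is the count per 1000000 mapped reads of the sample, and the RPKM the authors deposited is this CPM per kilobase of gene. Only the counts were used for levels and tests, and the submitters' processing notes also name bcl2fastq 1.8.4, FastQC, DESeq and DESeq2.

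The 6588 genes that reached 10 counts in 3 or more samples were tested. Each comparison was fitted to the samples of its 2 groups in edgeR 4.0.16 (R 4.3.3) with TMM normalization and the quasi-likelihood test, and a gene was called with a fold change of 1.5 or more and an adjusted p-value (Benjamini-Hochberg) under 0.05. Standard errors were the log2 fold change over the root of its F statistic, distances were taken on log2 CPM with a prior count of 2, and the procedure was tested on simulated data. Positions and overlaps of genes came from the annotation deposited with the counts, and sequences and the Ty2 element from RefSeq R64. Of the 6692 genes, 6008 matched RefSeq by identifier and 6000 had the same start and end. The alternatives were the DESeq2 1.42.0 Wald test and size factors, library size alone, all 5 groups in 1 model, other filters, no fold cutoff, a test against the cutoff, a replicate block and leaving out each sample. Python 3.11.15, numpy 2.4.6, pandas 2.3.3 and matplotlib 3.10.9 served for summaries and figures.

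The members and gene lists were chosen with earlier results of these data known. By rule, the text names all 8 genes in every comparison, pathway genes called in at least 1 comparison with DMSO, the genes next to the CUP1 copies and, for likeness, the 3 genes of highest r. FET4, GEF1, SOD1, CCS1 and COX11, which were not called, and overlapping genes are named outside this rule. The 3 replicates are described as biological, and p-values weigh a difference between groups against the spread between these cultures. Floors of 3 counts cover counting error only.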

Additional observations from a re-analysis of the deposited data

How the results depend on the processing

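Of the 14 changes called among the 48 that the 8 genes gave over 6 comparisons, 105 of 112 values under other settings kept the call and 7 lost it, and 82 of 84 values with 1 sample left out kept it, none of them with a change of sign. For the 35 called changes of pathway genes and of neighbours of CUP1 (comparisons with DMSO and between the intrabodies), 262 of 280 values under other settings and 199 of 210 with 1 sample left out kept the call, and none changed sign. Among the changes not called, 7 of 272 values under other settings changed sign: with library size alone CTR1 in Curcumin (0.056), CUP2 in Curcumin (0.035), CTR1 in scFv-58F (-0.03) and in scFv-58F over scFv-645 (-0.047), with the DESeq2 Wald test (0.009) and its size factors (0.013) FRE7 in scFv-58F over scFv-645, and with the replicate block CTR1 in scFv-645 (-0.001). The cause was not tested. With 1 sample left out, log2 fold changes ran through 0 in CPTH2 for CUP1-1 and CUP1-2 (-0.37 to 0.215), in scFv-58F for CTR1 (-0.026 to 0.092), and in scFv-645 for CTR1 (-0.044 to 0.073), CUP1-1 and CUP1-2 (-0.006 to 0.551) and CRS5 (-0.246 to 0.001). They did so too in scFv-58F over scFv-645 for CTR1 (-0.045 to 0.092), FRE7 (-0.161 to 0.15), CUP1-1 and CUP1-2 (-0.046 to 0.211) and MAC1 (-0.058 to 0.025), and in CPTH2 over Curcumin for CUP2 (-0.166 to 0.125).

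The numbers of genes called depended on the fold cutoff, the model and single samples where changes were small. Without the fold cutoff, 3 of the 8 genes were called in scFv-58F and 1 in scFv-58F over scFv-645. Of the 25 pathway genes, 16 were called in CPTH2, 16 in scFv-58F, 9 in scFv-645 and 5 in scFv-58F over scFv-645. At this setting, 4216 of all 6588 genes were called in CPTH2, 3231 in scFv-58F, 1508 in scFv-645 and 1415 between the intrabodies. In a test against the cutoff itself, 0 of the 8 genes were called in scFv-58F and 0 in scFv-645, and of the pathway genes 5 in CPTH2, 0 in each intrabody and 0 between the intrabodies. That test called 1003 of all 6588 genes in CPTH2, 94 in scFv-58F, 22 in scFv-645 and 5 between the intrabodies. With all 5 groups in 1 model, 0 of the 8 genes were called in scFv-58F and 0 in scFv-645, and 0 pathway genes in scFv-645 and 0 between the intrabodies. This model called 230 of all 6588 genes in scFv-58F, 50 in scFv-645 and 7 between the intrabodies. Leaving out 1 sample at a time gave 1 to 3 of the 8 genes in scFv-58F, 0 to 1 in scFv-645 and 0 to 1 between the intrabodies, and 1 to 2, 2 to 3 and 0 to 2 pathway genes in the same comparisons. Over all 6588 genes it gave 464 to 559 in scFv-58F, 244 to 308 in scFv-645 and 159 to 236 between the intrabodies. Library size alone moved the share of higher calls among all genes to 70.6% in Curcumin against 53.0% with TMM, to 16.2% against 26.6% in scFv-58F, to 11.6% against 23.9% in scFv-58F over scFv-645 and to 29.5% against 46.9% in CPTH2 over Curcumin.

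The replicate numbers are not described as marking a shared day or batch, and the deviations of same-numbered samples correlated by -0.19 to 0.10 on average, with every pair above 0.1 in no comparison. With the replicate number as a block, the calls among the 8 genes were 3 in Curcumin, 4 in CPTH2, 1 in each intrabody, 0 between the intrabodies and 5 between the drugs. Pathway genes called with the block were 17 in Curcumin, 11 in CPTH2, 1 in scFv-58F, 2 in scFv-645, 1 between the intrabodies and 16 between the drugs. Of all 6588 genes, 3323 were called with the block in Curcumin, 2050 in CPTH2 and 3173 between the drugs. For scFv-58F the number was 491, for scFv-645 271 and between the intrabodies 183. FRE7 had the lowest counts of the 8 genes, down to 36 in a sample.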
